A study of Mus musculus with 4 samples.

Results

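Transcripts of 10 ubiquitin ligases linked to muscle atrophy were examined in mouse gastrocnemius, a mainly fast-fibred muscle of the calf. They were taken from a list of named genes, chosen with earlier results of these data known. Each was read by its brightest transcript cluster with a single gene symbol. All 10 were found among the 22180 genes on the arrays, each with 1 cluster, and all 10 lay above the level filter that kept 13258 genes. There was 1 array for each of 4 groups. These were wild-type (WT) mice given vehicle (sodium citrate), WT mice treated with streptozotocin (STZ), and 2 groups with a knockout (KO) of the zinc-finger factor KLF15 confined to skeletal muscle, on vehicle or on STZ. STZ is toxic to pancreatic beta cells, the source of insulin, and is used to bring on diabetes. By the labels it was injected into the peritoneal cavity at a dose of 50 mg/kg daily for 5 days, and muscle was collected 3 weeks after treatment. Strain, sex, age, the driver of the muscle deletion and whether RNA of several animals was pooled were not among the details given in the labels.

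Ubiquitin ligases choose which proteins are tagged with ubiquitin and so sent to the proteasome. In wasting muscle, such as after denervation, fasting or loss of insulin, FOXO transcription factors turn on several of them, and insulin signalling holds FOXO in check through the kinase AKT. The genes for atrogin-1 (Fbxo32) and MuRF1 (Trim63) are the standard transcript markers of that state. The question the design puts to these genes is whether diabetes alters their transcripts in muscle with and without KLF15.

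With 1 array per group, no test could be run and the spread between animals is unknown, so "higher" and "lower" describe single arrays. Log2 differences were taken on log2(intensity + 3.69), which understates changes of dim genes. A difference was counted when it reached 1.5-fold, which is 0.585 on the log2 scale, and the percentage of all 13258 genes that did the same is given with the first such count in each comparison.

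The RefSeq promoter table (GRCm38.p6), which gives 250 bases before and 50 after each transcription start, was searched on both strands for 4 motifs. It matched 9 of the 10 genes, with 10 windows, of which Fbxo40 had several. Fbxo32 had no window there, so its promoter was not searched for any of the motifs. The motif of FOXO factors, GTAAACA, was in the windows of Trim63 and Mdm2 alone among the matched genes, and in 3.65% of all 32851 windows. A short element of the glucocorticoid receptor, AGAACA, was in windows of Trim63 and Fbxo40, against 18.97% of all windows. The motif CCACCC, of the kind that KLF and Sp1 factors bind, was in windows of 4 genes, namely Fbxo31, Fbxo40, Trim32 and Cblb, against 31.5% of all. TTGCNNAA, of the C/EBP factors, was in 1 window, that of Fbxo40, against 10.8% of all. The windows of Trim63 (chr4:134314870-134315169, plus strand) and Mdm2 (chr10:117710709-117711008, minus strand) are printed because they hold the FOXO motif. Capitals mark the FOXO motif and the glucocorticoid receptor element on either strand. In Trim63 the receptor element begins at -200 and the FOXO motif at -194 from the start, so that they abut and do not overlap. In Mdm2 only the FOXO motif is present, at -153. These matches describe letters and do not show binding.
Trim63: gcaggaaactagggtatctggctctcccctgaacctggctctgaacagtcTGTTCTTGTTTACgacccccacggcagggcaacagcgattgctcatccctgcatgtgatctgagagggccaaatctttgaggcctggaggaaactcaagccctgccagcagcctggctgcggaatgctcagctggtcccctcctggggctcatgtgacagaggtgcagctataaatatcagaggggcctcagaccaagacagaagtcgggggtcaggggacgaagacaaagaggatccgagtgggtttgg
Mdm2: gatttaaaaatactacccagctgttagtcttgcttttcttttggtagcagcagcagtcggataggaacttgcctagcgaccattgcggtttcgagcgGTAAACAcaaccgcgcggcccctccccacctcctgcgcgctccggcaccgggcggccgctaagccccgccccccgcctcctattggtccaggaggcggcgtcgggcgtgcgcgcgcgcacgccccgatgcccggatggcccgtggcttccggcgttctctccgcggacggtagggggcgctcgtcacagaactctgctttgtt

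The arrays were checked before the ligases were compared. Klf15 had an intensity of 50.5 with vehicle and 72.1 with STZ in WT, and 19.8 and 16.04 in KO, so both KO arrays were lower than both WT arrays. Fast fibre markers were bright on every array, with 10 genes summing to between 57615 and 59654. The KO STZ array was lower than the WT STZ array for bright genes in general. Genes above level percentile 75 had a median log2 difference of -0.11 in that comparison, and medians from -0.063 to 0.035 in the other pairwise ones.

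Fbxo32 encodes atrogin-1, the F-box subunit that brings substrates such as MyoD and the translation factor eIF3f to a cullin ligase. Its intensity was 542 with vehicle and 696 with STZ in WT, and 530 and 427 in KO. The vehicle arrays lay close together, WT STZ was the highest of the 4 and KO STZ the lowest. The STZ difference was 0.36 on the log2 scale in WT and -0.31 in KO. KO differed from WT by -0.032 under vehicle, a value that turned to 0.042 at most under other settings, and by -0.70 under STZ. In intensity, KO STZ stood at 61.4% of WT STZ. That difference lay at percentile 1.58 of all genes, and the difference between STZ effects, -0.67, at percentile 2.53. Under quantile normalization and with the loess trend removed the KO STZ difference was -0.50 and -0.52, short of 1.5-fold.

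Trim63 encodes MuRF1, a RING-finger ligase of the sarcomere that marks myosin and other thick-filament proteins. Intensities were 303 with vehicle and 400.05 with STZ in WT, and 395 and 345 in KO. Here WT vehicle stood lowest, and KO vehicle was about as high as WT STZ, an arrangement that Fbxo32 did not have. The log2 STZ difference was 0.40 in WT, at percentile 94.9 of genes, and -0.19 in KO, at percentile 20.9 (-0.098 under quantile normalization). Against WT, KO was at 0.38 under vehicle, at percentile 96.6. Under STZ it was at -0.21, which turned to 0.0061 under quantile normalization. The difference between STZ effects was -0.59, at percentile 3.84, and shrank to -0.42 under quantile normalization and -0.47 under loess.

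**Figure D1:**
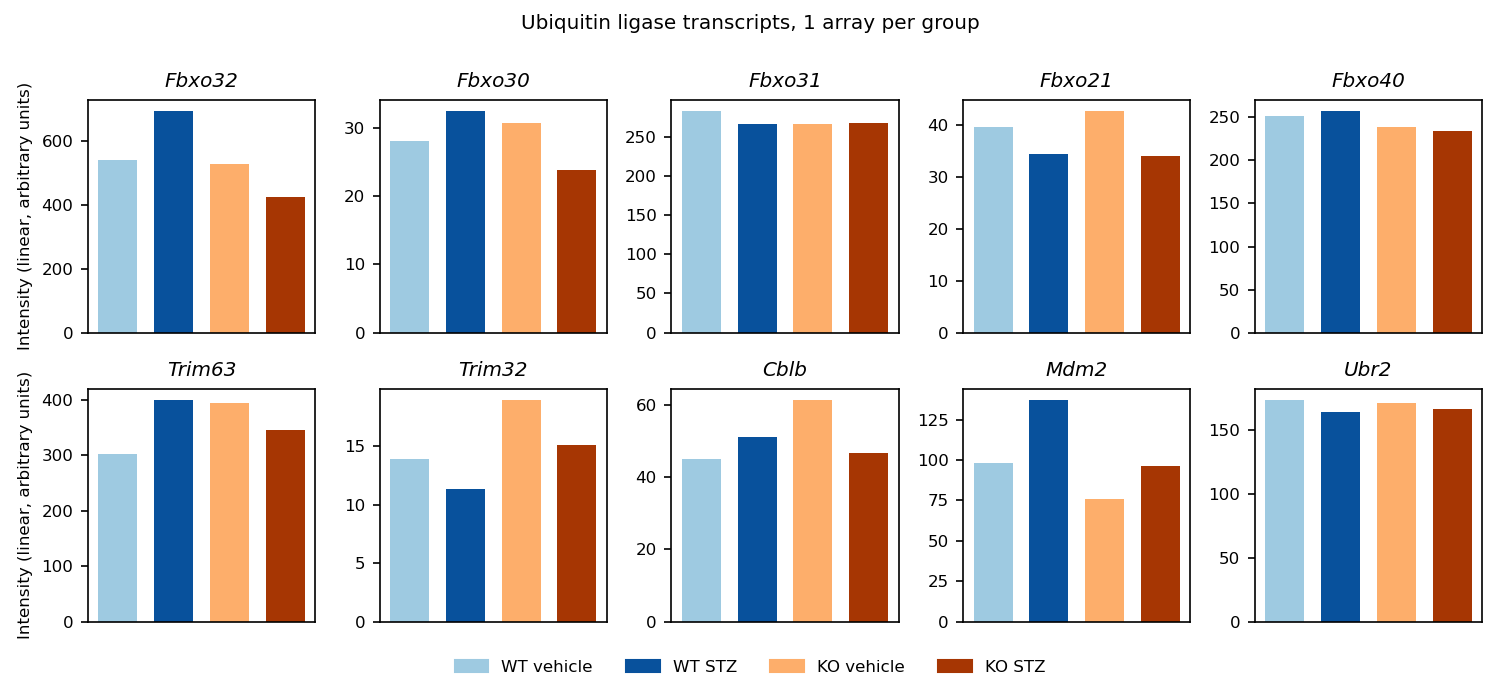
Linear intensity of each of the 10 ligase transcripts on the 4 arrays, 1 bar per array and each panel with its own axis from 0. Fbxo32 is highest in WT STZ (696) and lowest in KO STZ (427), while Trim63 is lowest in WT vehicle (303).

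Among the other F-box genes, Fbxo30 followed the arrangement of Fbxo32 most closely. Fbxo30 encodes MUSA1, an F-box protein induced in denervated muscle when BMP signalling is low. It read 28.1 with vehicle and 32.5 with STZ in WT, and 30.8 and 23.8 in KO. WT STZ was again the highest array and KO STZ the lowest. The STZ difference was 0.19 in WT and -0.33 in KO (log2), and KO STZ stood at -0.40 against WT STZ. Its difference between STZ effects, -0.51, lay at percentile 6.07.

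Fbxo21 encodes SMART, another FOXO-dependent F-box protein of atrophying muscle. Its intensity was 39.6 with vehicle and 34.4 with STZ in WT, and 42.7 and 34.03 in KO. Both STZ arrays were lower than both vehicle arrays, with STZ differences of -0.18 in WT and -0.30 in KO. Between genotypes under STZ it differed by -0.014, a value whose sign changed under quantile normalization and loess.

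Fbxo31 and Fbxo40 varied little. Fbxo31, an F-box protein also found among FOXO-dependent genes of muscle, read 283 with vehicle and 266 with STZ in WT, and 266 and 268 in KO. Its highest array was 1.07 times its lowest. Fbxo40, a muscle-restricted F-box protein that targets the insulin receptor substrate IRS1, read 251 with vehicle and 257 with STZ in WT, and 239 and 234 in KO. Its highest array was 1.10 times its lowest, and 5 of its 5 differences changed sign under quantile normalization, so no direction is given for it.

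Trim32, a tripartite-motif RING ligase that acts on desmin and thin filaments and is mutated in a limb-girdle muscular dystrophy, read 13.9 with vehicle and 11.3 with STZ in WT, and 18.99 and 15.1 in KO. Both KO arrays were higher than both WT arrays, and each STZ array was lower than its vehicle array. The KO difference was 0.36 (log2) under vehicle and 0.33 under STZ, at percentiles 96.1 and 94.02. The STZ difference was -0.23 in WT and -0.27 in KO, so that the STZ effects differed by -0.036. It was the 1 ligase left out when the level filter was raised to percentile 75, and its KO differences were 0.23 under vehicle and 0.19 under STZ with an offset of 16.

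Cblb, a RING ligase that acts on IRS1 in unloaded muscle, read 44.9 with vehicle and 50.95 with STZ in WT, and 61.3 and 46.6 in KO. KO vehicle stood above the other arrays. Its KO difference under vehicle was 0.42, at percentile 97.6. That was the highest of the 10 genes, though Trim63 passed it with an offset of 16 (0.36 against 0.34) and under loess (0.44 against 0.42). Under STZ the KO difference was -0.12, and -0.016 and -0.031 under quantile normalization and loess. Its STZ difference was 0.17 in WT and -0.37 in KO, the latter at percentile 5.12. The difference between STZ effects was -0.54.

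Mdm2, the RING ligase that restrains p53, read 98.2 with vehicle and 137 with STZ in WT, and 76.1 and 96.3 in KO. It had the widest span of the 10, its highest array being 1.80 times its lowest. Each STZ array was higher than its vehicle array, and each KO array lower than the WT array of the same treatment. The STZ difference was 0.47 in WT and 0.33 in KO, at percentiles 97.1 and 95.7 of all genes. KO differed from WT by -0.35 under vehicle and -0.50 under STZ, at percentiles 4.51 and 4.84. These 4 values kept their sign under 6 of 6 other settings for offset, scaling and clusters, and the last ranged from -0.53 to -0.34.

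Ubr2, a ligase of the N-degron pathway that is active in wasting muscle, read 174 with vehicle and 164 with STZ in WT, and 172 and 167 in KO. Its highest array was 1.06 times its lowest, the narrowest span of the 10. With Fbxo31 it made the closest pair of profiles among the ligases, at a root mean square distance of 0.026 on the log2 scale over 4 arrays.

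Read over the 10 genes, STZ in WT left 6 above 0 and 4 below, with a median of 0.10, where 51.5% of all genes were above 0 and their median was 0.0076. Quantile normalization brought the ligases' median to 0.049, and loess to 0.063. None of the 10 was 1.5-fold higher, against 1.27% of all genes, and none was 1.5-fold lower, against 0.445%. In KO, STZ left 8 of 10 below 0, with a median of -0.23, where 57.0% of all genes were below 0 and the median of all genes was -0.032. Again 0 of 10 passed 1.5-fold, against 0.445% of genes on the higher side and 0.656% on the lower. No array is shared by these STZ comparisons. Between them, 5 ligases were above 0 in WT and below 0 in KO, namely Fbxo32, Trim63, Fbxo30, Cblb and Fbxo40, as were 28.6% of all genes. Under quantile normalization and loess Fbxo40 left that group, and 4 of 10 stood beside 23.1% and 24.1% of genes. Counted in either direction, 6 of 10 had opposite signs in the genotypes, as did 48.5% of all genes.

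**Figure D2:**
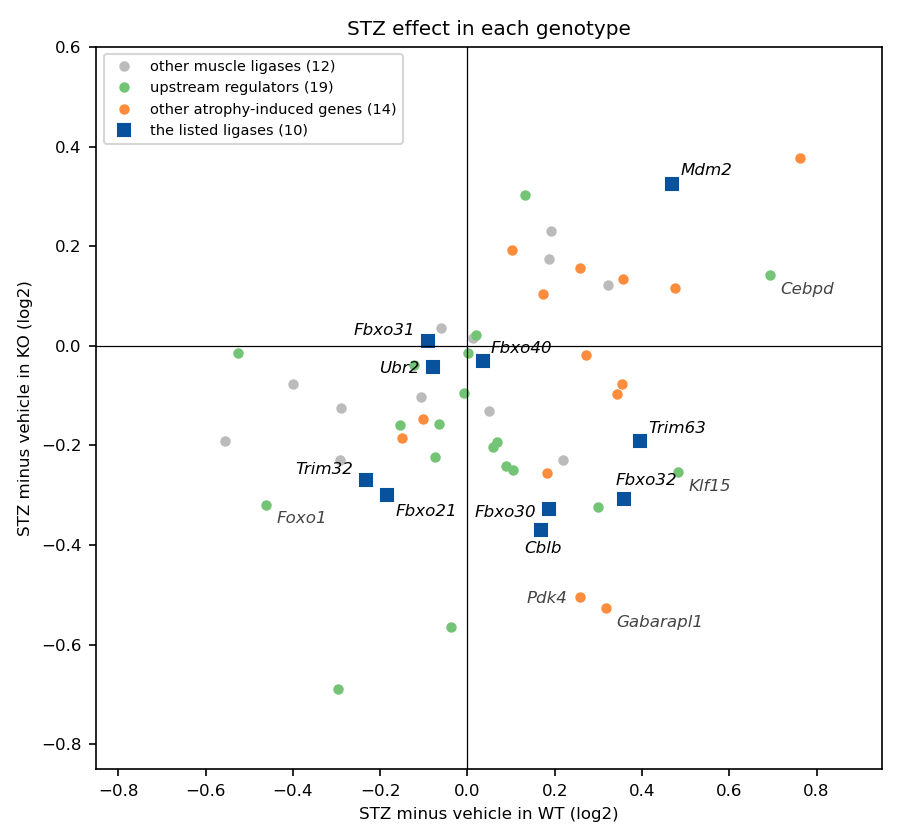
STZ minus vehicle on the log2 scale in WT (x axis) and in KO (y axis) for the 10 ligases (squares) and for 3 other gene lists (circles). Fbxo32, Trim63, Fbxo30, Cblb and Fbxo40 lie in the lower right quadrant, above 0 in WT and below 0 in KO. Fbxo40 is close to the origin there (0.035 in WT and -0.030 in KO). Mdm2 lies in the upper right.

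KO against WT under vehicle left 5 ligases above 0 and 5 below, with a median of 0.041. Of the 10, 0 were past 1.5-fold, against 0.581% of genes higher and 0.777% lower. Trim63, Trim32 and Cblb were each above percentile 95 of all genes and Mdm2 was below percentile 5. Under STZ, 7 of 10 were below 0 and the median was -0.13, beside -0.048 for all genes and -0.11 for bright genes. That median turned to 0.031 under quantile normalization, so no direction is given for the group as a whole. Fbxo32 was the 1 gene of 10 at least 1.5-fold lower, where 2.81% of all genes were, and 0 were 1.5-fold higher, against 0.845%. The count of 1 became 0 under quantile normalization and loess.

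For the difference between STZ effects (KO minus WT), 8 of 10 were below 0, with a median of -0.13, beside 57.1% of all genes and their median of -0.048. Bright genes had a median of -0.098, and quantile normalization and loess brought the ligases' own median to -0.030 and -0.043. Fbxo32 and Trim63, or 2 of 10, were past 1.5-fold on the lower side, where 3.91% of genes were, and 0 on the higher side, against 1.76%. This count was 1 with an offset of 16 and 0 under quantile normalization and loess. Fbxo30, at -0.51, and Cblb, at -0.54, came short of it. The other 6 ligases lay between -0.14 and 0.099. This comparison uses all 4 arrays and is not separate from the pairwise ones.

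**Figure D3:**
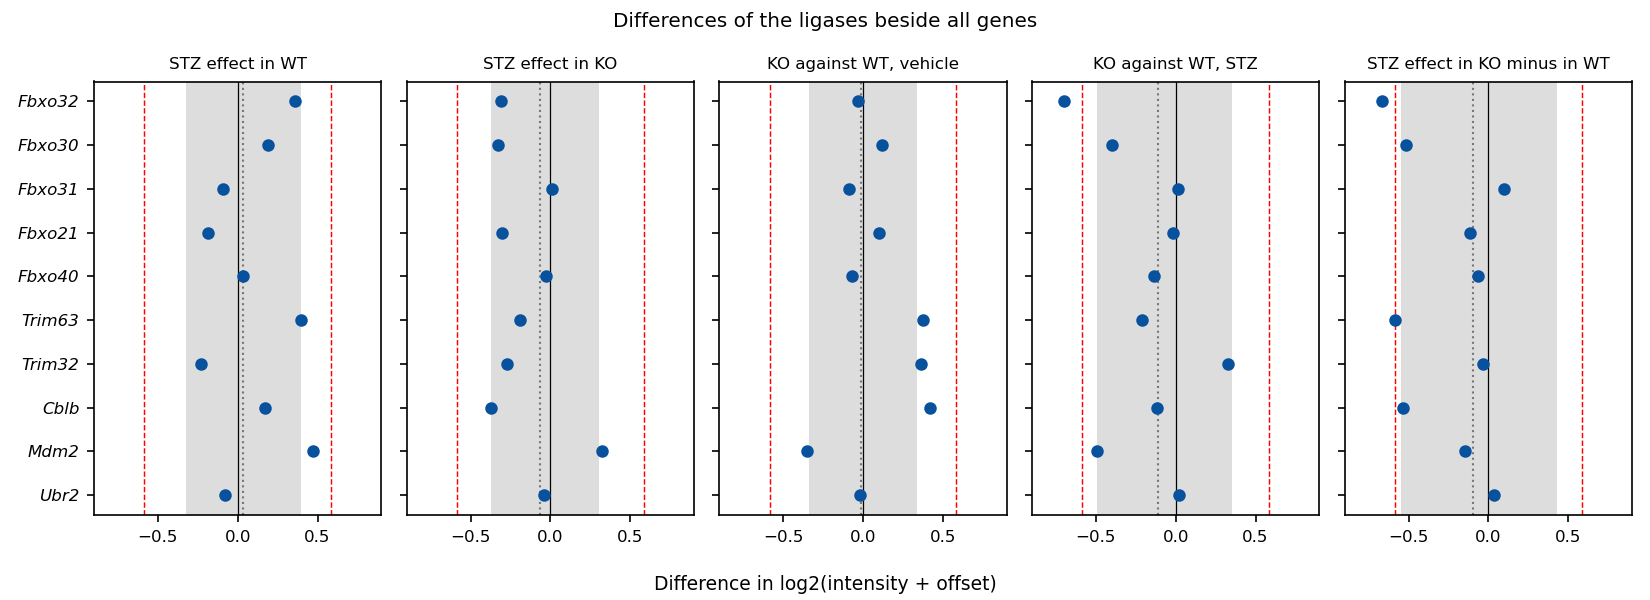
Log2 difference of each ligase in the 5 comparisons. The grey band spans percentiles 5 to 95 of 13258 genes, the dotted line is the median of bright genes and the dashed lines mark 1.5-fold. Fbxo32 lies past the lower dashed line in KO against WT under STZ (-0.70).

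The profiles of Fbxo32 and Trim63 were not close. Their root mean square distance was 0.23 (log2, 4 arrays), and Trim63 came at rank 4989 among genes ordered by their distance from Fbxo32. Among the ligases, Fbxo32 was nearest to Fbxo30, at 0.13, and Trim63 to Cblb, at 0.11. Over all genes, the 5 profiles most like Fbxo32 were Cat, Cyp20a1, Ptpra, Man1a and Fabp4, at distances from 0.0080 to 0.023. Cat, the catalase gene, read 701 with vehicle and 893 with STZ in WT, and 681 and 556 in KO. Fabp4, a fatty acid binding protein of fat cells and endothelium, read 934, 1194, 912 and 763 in the same order of arrays. The 5 most like Trim63 were Astn2, Nupl2, Polrmt, Irf2bp2 and Diaph2, at distances from 0.010 to 0.018. Polrmt, the mitochondrial RNA polymerase, read 37.1 with vehicle and 49.3 with STZ in WT, and 49.5 and 41.6 in KO.

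Genes around the ligases were described from lists of the pathway, also chosen with earlier results of these data known. Of 12 other muscle ligases, 0 passed 1.5-fold in any of the 5 comparisons, where between 0.445% and 3.91% of all genes passed it on one side, and their median STZ difference in WT was -0.024. The closest relatives of MuRF1 did not share the position of Trim63 in WT STZ. Trim54 (MuRF3) read 715 in WT vehicle and 585 in WT STZ, a log2 difference of -0.29, which was -0.11 with the mean of its 2 clusters. Trim55 (MuRF2) read 144 and 108, a difference of -0.40. Cbl, the relative of Cblb, stood at -0.56 in WT STZ and at -0.19 in KO STZ, though at -0.37 and -0.13 with an offset of 16. Mul1, a mitochondrial ligase, stood at 0.22 in WT STZ and -0.23 in KO STZ. With the mean of its 2 clusters these were -0.016 and -0.095, so the opposite signs were lost.

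Upstream of the ligases, 19 regulators had a median STZ difference of 0.0023 in WT, which turned negative in 2 of 6 other settings, and of -0.19 in KO. Foxo1 read 66.4 with vehicle and 47.2 with STZ in WT, and 90.1 and 71.5 in KO. Its transcript was thus lower with STZ in both genotypes (-0.46 and -0.32) and higher in KO than in WT under both treatments (0.42 and 0.56). With the mean of its 2 clusters the KO differences were 0.037 and 0.30, and the STZ differences -0.27 and -0.011. Foxo3 read 22.1, 20.96, 29.97 and 26.5 in the same order, with KO differences of 0.38 under vehicle and 0.29 under STZ. Foxo4 read 105 with vehicle and 113 with STZ in WT, and 100.2 and 83.7 in KO, so that WT STZ was highest and KO STZ lowest, as for Fbxo32. Its STZ difference was 0.11 in WT and -0.25 in KO, and KO STZ stood at -0.42 against WT STZ (-0.27 under quantile normalization). Foxo1 and Foxo3 did not have that arrangement, which 14.2% of all genes had. Foxo4 is an example named after its values were seen. It was not alone among the regulators, since Klf15, Mstn, Myog and Fst had the same arrangement. So did Nr3c1, whose WT arrays were nearly equal.

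Klf15, the deleted gene, was the 1 regulator past 1.5-fold between the genotypes, at -1.20 under vehicle and -1.94 under STZ. Cebpd, a C/EBP factor induced by glucocorticoids, was the 1 regulator past 1.5-fold higher in WT STZ, where 1.27% of genes were, at 0.69 (log2), or 0.37 with an offset of 16. Ppargc1a, the coactivator PGC-1alpha, was the 1 past 1.5-fold lower in KO STZ, where 0.656% of genes were, at -0.69. For the difference between STZ effects, 2 of 19 were 1.5-fold lower, where 3.91% of all genes were, namely Klf15 itself at -0.74 and Fst, the myostatin antagonist follistatin, at -0.62. With an offset of 16 both came short of 1.5-fold. Klf15 is the deleted gene, so its place in that count cannot be read as a result about the regulators. None was 1.5-fold higher.

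Of 14 other genes known to be induced in atrophy, 12 were above 0 in WT STZ, where 51.5% of all genes were. Their median of 0.27 stayed between 0.22 and 0.27 in the other settings. Since this list too was chosen with earlier results of these data known, its counts are descriptive and not an independent test. Only Mt2, a metallothionein, passed 1.5-fold, at 0.76, where 1.27% of genes were that much higher. In KO STZ the median was -0.047 and changed sign under quantile normalization. The difference between STZ effects was below 0 in 13 of 14, beside 57.1% of all genes. Its median was -0.32, and -0.17 with 9 of 14 below 0 under quantile normalization. Gabarapl1, which acts in autophagosome formation, and Pdk4, the kinase that shuts off pyruvate dehydrogenase, led it at -0.84 and -0.76, the 2 of 14 past 1.5-fold where 3.91% of genes were. Gabarapl1 read 74.4 with vehicle and 93.6 with STZ in WT, and 78.4 and 53.3 in KO. Pdk4 read 1401 with vehicle and 1677 with STZ in WT, and 1514 and 1066 in KO. Both had the arrangement of Fbxo32, with WT STZ highest and KO STZ lowest. In KO STZ against WT STZ they were the 2 of 14 at least 1.5-fold lower, beside 2.81% of genes, at -0.77 and -0.65, and Pdk4 came short of it under quantile normalization (-0.49) and loess (-0.45).

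Genes of the machinery that F-box proteins and RING ligases work with were lower on the KO arrays. Of 12 E1 and E2 enzymes, which activate ubiquitin and pass it on, 11 were below 0 in KO vehicle against WT vehicle and 12 in KO STZ against WT STZ, beside 50.8% and 58.1% of all genes. Their medians were -0.24 and -0.29, and -0.17 and -0.094 under quantile normalization. Cdc34, the E2 that works with cullin ligases, was the 1 of 12 past 1.5-fold, at -0.81 under STZ, where 2.81% of all genes were that much lower. It read 302 with vehicle and 356 with STZ in WT, and 251 and 202 in KO. Ube2a, an E2 of the N-degron pathway, stood at 0.53 in WT STZ and 0.12 in KO STZ.

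All 6 measured genes of the cullin ligase core were below 0 in KO under both treatments, also under quantile normalization and loess. Their median was -0.19 under vehicle and -0.34 under STZ (-0.16 under quantile normalization), beside -0.0039 and -0.048 for all genes, and none passed 1.5-fold. Cul1, the scaffold of the ligases that F-box proteins join, read 166 with vehicle and 214 with STZ in WT, and 158 and 165 in KO. Cops5, the catalytic subunit of the complex that resets cullins, stood at -0.20 under vehicle and -0.54 under STZ (-0.35 under quantile normalization). The 8 deubiquitinases above the filter had medians of -0.030 and 0.041, with 0 past 1.5-fold, and Usp14, of the proteasome, at -0.26 and -0.078, the latter positive under quantile normalization. Usp14 and Usp7, which deubiquitinates MDM2, had the largest differences between STZ effects of that list, at 0.19 and -0.17.

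**Figure D4:**
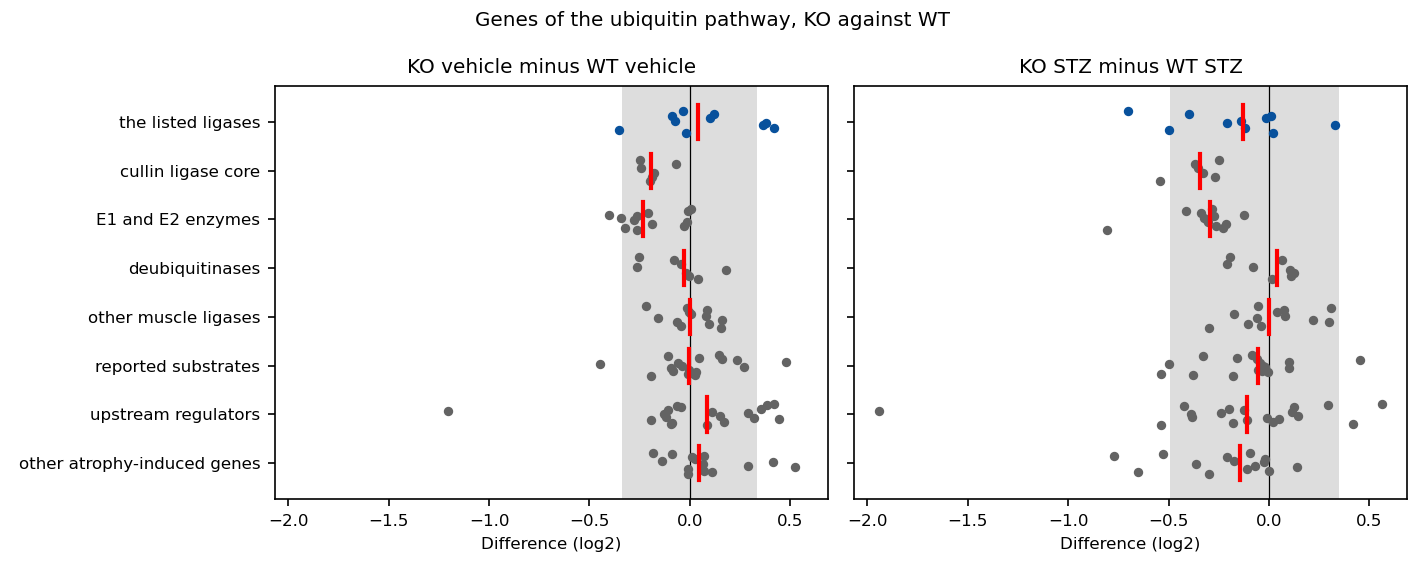
KO minus WT on the log2 scale under vehicle (left) and STZ (right) for the 10 ligases and 7 gene lists, 1 point per gene above the level filter. Red bars are medians and the grey band spans percentiles 5 to 95 of all genes. The cullin core (-0.34) and the E1 and E2 enzymes (-0.29) have the lowest medians under STZ, and the point far to the left is Klf15.

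Of 17 reported substrates of these ligases, 0 passed 1.5-fold in any of the 5 comparisons. Between 0.445% and 3.91% of all genes passed it on one side. Dtnbp1, the dysbindin that TRIM32 targets, had the largest difference between STZ effects, at -0.53, with 0.51 in WT STZ and -0.020 in KO STZ. Pias4, another TRIM32 substrate, followed at -0.40. Median differences of the substrates lay between -0.053 and 0.035, and the sign of each changed under at least 1 other setting.

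Slow fibre and adipocyte markers differed between the genotypes under both treatments. In KO vehicle against WT vehicle, 6 of 8 slow fibre markers were below 0, with a median of -0.33. Adipocyte markers were above 0 there in 4 of 4, with a median of 0.22. In KO STZ against WT STZ slow fibre markers were below 0 in 8 of 8, beside 58.1% of all genes, with a median of -0.52. That median was -0.35 under quantile normalization, with 7 of 8 below 0, and -0.36 under loess. The summed intensity of the slow fibre markers was 1610 with vehicle and 1667 with STZ in WT, and 1318 and 1068 in KO. The 3 of 8 past 1.5-fold, where 2.81% of all genes were, were Tnni1, the slow troponin I, at -1.32, Tnnc1, the slow troponin C, at -1.04 and Tpm3, the slow tropomyosin, at -0.81. For the difference between STZ effects the 3 of 8 past 1.5-fold, against 3.91% of genes, were Tnni1 at -0.83, Myl3, a slow myosin light chain, at -0.71 and Tnnc1 at -0.61. Tnni1 was also the 1 slow marker past 1.5-fold in WT STZ, at 0.62, where 1.27% of genes were that much higher. Adipocyte markers above the filter were below 0 in 4 of 4 in KO STZ against WT STZ, with a median of -0.45. Plin1, the perilipin of lipid droplets, was the 1 of 4 past 1.5-fold, at -0.63, or -0.40 with an offset of 16. In KO STZ against KO vehicle Retn, the resistin gene, and Plin1 were 1.5-fold lower, where 0.656% of genes were, at -0.75 and -0.64. For the difference between STZ effects 3 of 4 were, against 3.91% of genes, namely Retn at -0.80, Plin1 at -0.78 and Adipoq, the adiponectin gene, at -0.72. The 5 matched ones, with Lep under the filter, summed to 159.9 with vehicle and 169 with STZ in WT, and 196 and 119 in KO, and none was at 0. Whether either marker group has a part in the Fbxo32 difference was not tested. In whole muscle, fewer cells of a type and less RNA per cell cannot be told apart.

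The remaining marker lists had medians in KO STZ against WT STZ of 0.26 for macrophages, -0.051 for fibroblasts and 0.040 for endothelium. Those of fast fibres, satellite cells and neural cells were -0.041, 0.039 and 0.073, the last from only 2 genes of 6 listed. Macrophage markers ran from -0.40 to 0.43, with 4 above 0 and 2 below, where 41.8% of all genes were above 0. Endothelial markers ran from -0.33 to 0.34, also with 4 above 0 and 2 below. The fibroblast and fast fibre medians turned positive under quantile normalization.

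The fibroblast median also covers genes that lay far apart. Col1a1 and Col3a1, the fibrillar collagens made by fibroblasts, were 2 of 6 at least 1.5-fold higher in KO under both treatments, where 0.581% of all genes were under vehicle and 0.845% under STZ. Col1a1 read 425 with vehicle and 399 with STZ in WT, and 721 and 756 in KO, with KO differences of 0.76 and 0.92. For Col3a1 those differences were 0.64 and 0.76. Both collagens stayed past 1.5-fold under 6 of 6 other settings for offset, scaling and clusters. The other 4 fibroblast markers lay between -0.24 and -0.033 in KO STZ against WT STZ, and the part of these cells in the ligase differences was not tested.

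For the difference between STZ effects the 2 genes farthest from 0 were Pdgfra (-0.34) and Dcn (-0.20) among fibroblast markers and Myh1 (0.22) and Acta1 (0.19) among fast fibre ones. They were Cd163 (0.54) and Cd68 (-0.50) for macrophages, and Flt1 (-0.51) and Pecam1 (-0.43) for endothelium. Vcam1 (-0.58) and Chodl (0.23) led the satellite cell markers and Sox10 (0.54) and Mbp (0.17) the neural ones. None of these 12 genes passed 1.5-fold, with Vcam1 just short of it.

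Trim63, Cblb and Trim32 were higher in KO vehicle than in WT vehicle. The same KO array had 6 of 6 endothelial markers above the WT vehicle array, at a median of 0.34, beside 49.1% of all genes. The endothelial sums were 638 with vehicle and 642 with STZ in WT, and 776 and 708 in KO. Adipocyte markers were above 0 in 4 of 4 in that comparison, with a median of 0.22, and satellite cell markers in 5 of 5, with a median of 0.092. Fibroblast markers were above 0 in 4 of 6, with a median of 0.17, and macrophage markers in 3 of 6, with a median of 0.050. Other lists went the other way. Below 0 were 6 of 8 slow fibre markers (median -0.33), 2 of 2 neural ones (-0.28) and 9 of 10 fast fibre ones (-0.058). The fast fibre median turned to 0.059 under loess. The part of any of these cells in the Trim63, Cblb and Trim32 differences was not tested.

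**Figure D5:**
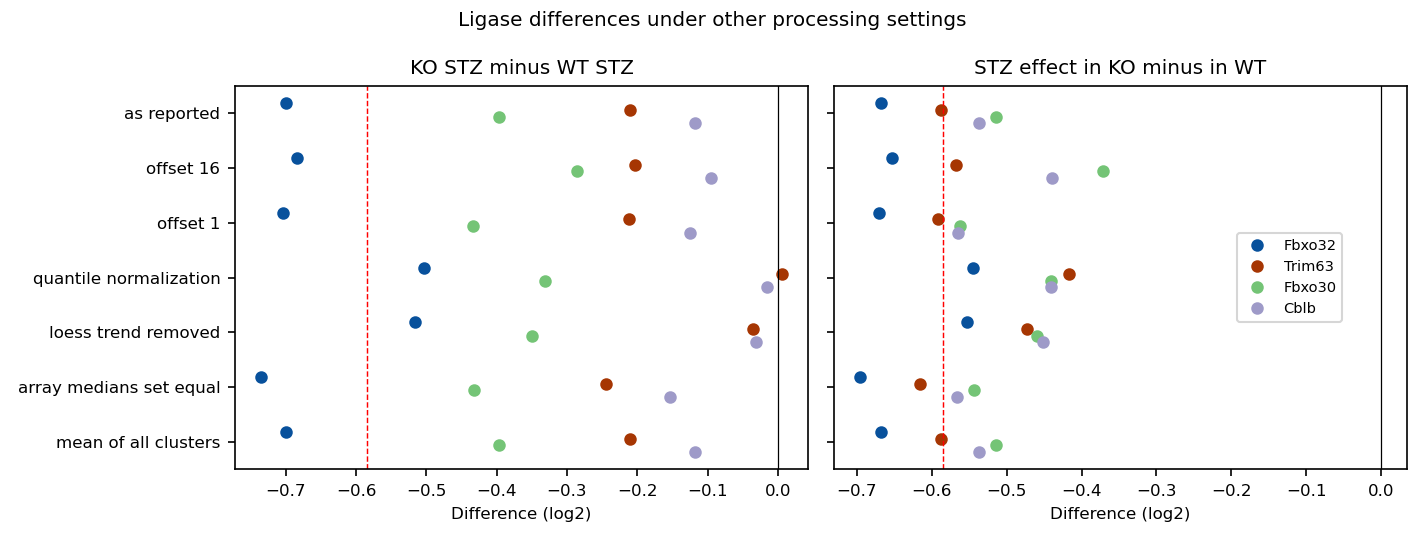
Log2 differences of Fbxo32, Trim63, Fbxo30 and Cblb as reported and under 6 other settings, for KO STZ minus WT STZ (left) and for the difference between STZ effects (right). The dashed line marks 1.5-fold lower. Fbxo32 stays below 0 throughout, and passes the line except under quantile normalization and loess.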

How the data were processed

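RNA of mouse gastrocnemius was measured on 4 Affymetrix arrays, 1 per group. Per the labels' protocols, 4 ug of column-purified total RNA was made into biotin-labelled cRNA. The deposited values are linear intensities for 41345 transcript clusters, with a scale seen from their range. The background correction, summary and normalization used by the authors were not stated in the labels or the file. Array medians lay between 5.73 and 5.96, and 23521 clusters had 1 gene symbol in the platform annotation.

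Intensities were turned into log2(intensity + 3.69), the offset being percentile 25 of all values, and not rescaled, since log2 medians spanned 0.035. The brightest cluster stood for a gene, and genes above the median level (intensity 5.81) were kept. No test was possible. The number of arrays limits the precision. Alternatives were offsets of 1 and 16, quantile normalization, loess (span 0.4), equal medians, the mean of all clusters, and 2 other level filters. Named list genes are those past 1.5-fold (at most 4 per list and comparison) and the 2 with the largest difference between STZ effects, and like profiles are the 5 nearest. Foxo1, Foxo3, Klf15, Trim54 and Trim55 were named in any case. Genes named beyond this are examples chosen after their values were seen. Of 155 listed symbols besides the ligases, 134 were matched and 130 passed the filter. The members and lists were chosen with earlier results of these data known. Python 3.11.15, numpy 2.4.6, pandas 2.3.3 and statsmodels 0.14.6 were used.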

Additional observations from a re-analysis of the deposited data

Results flagged for a closer look

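In 6 of the 10 ligases the STZ difference had opposite signs in the genotypes, as in 48.5% of all 13258 genes, each resting on 1 array per group, and the difference was not tested. The KO value less the WT value was -0.67 for Fbxo32, -0.59 for Trim63, -0.54 for Cblb and -0.51 for Fbxo30. It was -0.065 for Fbxo40 and 0.099 for Fbxo31, whose STZ differences changed sign in at least 1 genotype under other settings.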

How the results depend on the processing

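Of 50 values (10 ligases in 5 comparisons), 36 kept their sign under 6 other settings, and the 14 that did not were at most 0.21 in size. The median of the ligases in KO STZ against WT STZ was 0.031 under quantile normalization and -0.0024 under loess, and the count 1.5-fold lower was 0 under either. For the difference between STZ effects that count was 1 with an offset of 16 and 0 under quantile normalization and loess. Trim63 had -0.57 there with an offset of 16. By construction both scalings bring the bright genes of the arrays together. Over 8 alternatives the share of all genes 1.5-fold higher and lower ran from 0.483% to 1.94% and from 0.106% to 0.904% for STZ in WT, from 0.0453% to 1.09% and from 0.121% to 1.27% for STZ in KO, from 0.136% to 1.06% and from 0.234% to 1.33% for KO under vehicle, from 0.159% to 1.59% and from 1.35% to 4.08% for KO under STZ, and from 0.264% to 3.42% and from 1.25% to 5.64% for the difference between STZ effects. Each lowest share came with an offset of 16, which damps dim genes. No paired analysis was possible because each group has 1 array and the labels give no replicate numbers. The spread between animals is unknown.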
